A study of Mus musculus with 51 samples.

Results

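The genes described here are 10 genes of bone phosphate handling and mineral formation, Alpl, Phospho1, Smpd3, Enpp1, Ank, Slc20a1, Slc20a2, Phex, Fgf23 and Mgp. They were chosen by name, and all 10 were found among the 23358 entries of the femur libraries of the vitamin C (VitC) experiment and the 25938 genes of the femur libraries of the Tet experiment. Of the 1972767 peaks in the 10 peak lists, 1836 lay within 30 kb of these genes. RNA was sequenced from femurs of C57BL/6 mice at 20 weeks of age, in 3 groups of 3 libraries: wild type mice (WT), mice homozygous for the Gulotm1Mae allele that drank 3.3 g/L VitC throughout (VitC+), and mice of the same genotype whose VitC was withdrawn after week 15, so that the last 5 weeks passed without it (VitC+/-). Gulo encodes the last enzyme of VitC synthesis in mice, so both Gulo knockout groups depended on VitC in the water and the WT mice did not. A separate set of 12 femur libraries came from mice at 11 weeks of age, 3 each with Prrx1-Cre alone (Ctrl) and with Prrx1-Cre and floxed alleles of Tet1 (Tet1 cKO), of Tet2 (Tet2 cKO) or of both (Tet1/2 cKO). Prrx1-Cre, which the Ctrl mice also carried, acts in the limb mesenchyme, so blood cells and other lineages of the femur kept their Tet genes. DNA hydroxymethylation (5hmC) was mapped in femurs of VitC+, VitC+/-, Ctrl and Tet1/2 cKO mice, and 5hmC, H3K27me3 and H3K9me3 were mapped in MC3T3-E1 cells, a mouse calvarial pre-osteoblast line, grown with 4 mM beta-glycerophosphate, with 50 ug/ml VitC (VitC+) or without it (VitC-), in 2 cultures a group.

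Bone mineral forms when inorganic phosphate is released at the osteoblast membrane and in matrix vesicles faster than pyrophosphate, which blocks crystal growth, can build up. Tissue-nonspecific alkaline phosphatase (Alpl) cleaves pyrophosphate and phosphate esters, PHOSPHO1 frees phosphate from phosphocholine and phosphoethanolamine inside the vesicle, and neutral sphingomyelinase 2 (Smpd3) cleaves sphingomyelin of the membrane to phosphocholine and ceramide. ENPP1 makes pyrophosphate outside the cell and ANK exports the precursor that supplies it, the sodium-coupled carriers PiT-1 (Slc20a1) and PiT-2 (Slc20a2) import phosphate, PHEX and the hormone FGF23 act from osteocytes on the phosphate level of the blood, and matrix Gla protein (Mgp) inhibits mineral formation. TET enzymes oxidise 5-methylcytosine to 5hmC, mostly at CG dinucleotides, and VitC supports that step, as it supports several histone demethylases.

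The sequences below are shown because 5hmC is read at cytosines and the lists of the VitC+ and VitC+/- femurs differed at the first 2 of these places, with CG in capitals. These 2 are the central bases, at most 300, of the peak with the highest fold enrichment outside exons at Smpd3 and at Ank that was in the VitC+ femur list and overlapped no peak of the VitC+/- list. The last is the centre of the highest Smpd3 peak that both lists held. All 3 lie in introns, and coordinates are those of mm10, read from RefSeq GRCm38.p6 on the plus strand.
Smpd3, VitC+ list only, chr8:106294493-106294792: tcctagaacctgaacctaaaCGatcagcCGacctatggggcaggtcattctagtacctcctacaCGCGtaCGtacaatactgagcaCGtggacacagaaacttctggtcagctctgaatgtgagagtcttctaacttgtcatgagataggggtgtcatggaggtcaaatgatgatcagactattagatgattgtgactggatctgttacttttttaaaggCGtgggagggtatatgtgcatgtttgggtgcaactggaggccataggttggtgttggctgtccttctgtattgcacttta
Ank, VitC+ list only, chr15:27587367-27587666: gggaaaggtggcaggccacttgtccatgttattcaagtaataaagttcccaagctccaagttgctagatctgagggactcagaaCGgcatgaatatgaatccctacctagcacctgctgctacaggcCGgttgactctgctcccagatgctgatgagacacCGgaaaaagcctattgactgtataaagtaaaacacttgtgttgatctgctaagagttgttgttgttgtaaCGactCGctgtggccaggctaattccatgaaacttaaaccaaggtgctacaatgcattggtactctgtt
Smpd3, both lists, chr8:106312071-106312370: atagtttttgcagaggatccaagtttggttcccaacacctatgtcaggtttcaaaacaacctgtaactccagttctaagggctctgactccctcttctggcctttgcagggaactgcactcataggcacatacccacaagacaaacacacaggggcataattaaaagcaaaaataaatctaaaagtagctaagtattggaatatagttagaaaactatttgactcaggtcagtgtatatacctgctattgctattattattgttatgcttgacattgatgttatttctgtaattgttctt
The Smpd3 stretch found only in the VitC+ list held 7 CG, the Ank stretch 5, and the Smpd3 stretch of both lists 0. Over all 371568 peaks of the VitC+ femur list, 88.7% held a CG in their central bases and the median was 2. The share of those peaks with at least as many CG was 4.00% for the 7 of Smpd3 and 16.2% for the 5 of Ank.

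The 3 genes below are those of the 10 whose transcription start site lay under a peak of any list. The 250 bases upstream of their RefSeq start sites are given on the strand of the gene, again with CG in capitals. The peak was one of H3K27me3 in VitC- MC3T3-E1 cells at Enpp1 and Fgf23, and one of 5hmC in VitC- MC3T3-E1 cells at Phex.
Enpp1, chr10:24712160-24712409, minus strand: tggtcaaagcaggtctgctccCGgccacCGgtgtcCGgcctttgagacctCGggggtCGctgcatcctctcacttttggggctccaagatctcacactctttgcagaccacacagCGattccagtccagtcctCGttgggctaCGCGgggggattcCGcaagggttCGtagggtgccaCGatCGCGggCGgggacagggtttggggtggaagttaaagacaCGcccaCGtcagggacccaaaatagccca
Fgf23, chr6:127072652-127072901, plus strand: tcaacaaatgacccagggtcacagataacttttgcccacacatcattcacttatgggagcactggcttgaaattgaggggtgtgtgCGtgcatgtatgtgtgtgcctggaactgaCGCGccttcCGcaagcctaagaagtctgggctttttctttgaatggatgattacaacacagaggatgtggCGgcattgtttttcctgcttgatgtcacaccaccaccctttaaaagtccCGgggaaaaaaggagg
Phex, chrX:157415287-157415536, minus strand: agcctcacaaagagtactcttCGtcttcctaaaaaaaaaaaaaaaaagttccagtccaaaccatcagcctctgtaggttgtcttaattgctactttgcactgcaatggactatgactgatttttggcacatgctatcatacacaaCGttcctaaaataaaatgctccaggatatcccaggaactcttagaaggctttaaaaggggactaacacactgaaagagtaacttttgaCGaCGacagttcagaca
Enpp1 held 17 CG there, Fgf23 6 and Phex 4, beside a median of 6 over 32817 RefSeq promoters, of which 92.1% held at least 1. As many CG as at Enpp1 were found in 23.5% of all promoters, as many as at Fgf23 in 50.3% and as many as at Phex in 62.2%. Of the 7 members matched to a promoter, Ank had the most with 49, a number reached by 0.146% of promoters, followed by Phospho1 with 34.

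Some libraries stood apart. Levels of the VitC experiment are given as RPKM (reads per kilobase of gene, corrected for depth) divided by a scaling factor of each library, called scaled RPKM. Gulo was at 0.539 and 0.443 in 2 of the WT libraries and at 0 in WT replicate 3, while VitC+ replicate 1 held 0.239, above the other 5 knockout libraries at 0.0123 to 0.0336. Whether these 2 libraries were exchanged cannot be told here. Groups follow the labels, and results are also given without those 2 libraries. The effect of an exchange was not tested. Skeletal muscle RNA was uneven, with a summed level of 8 markers of 288 to 1239 in WT replicates 1 and 3, VitC+ replicate 2 and VitC+/- replicate 1 and of 6.39 to 33.4 in the other 5. The depth implied by the RPKM steps was 7.54 M (1e6) reads in WT replicate 1 and 31.0 to 47.4 M reads in the other 8. Defining markers of bone were above 0 in every femur library (8 of 8 of osteoblasts, 5 of 5 of osteocytes). In the Tet experiment the whole-gene level does not check the deletion, which takes out 1 exon. Tet1 was at 374 to 435 normalized counts in Ctrl, 532 to 773 in Tet1 cKO and 415 to 485 in Tet1/2 cKO. Tet2 was at 2236 to 2512 in Ctrl, 1834 to 2245 in Tet2 cKO and 1851 to 2970 in Tet1/2 cKO. The study shows western blots of both proteins in double knockout femurs, which were not analysed here.

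Withdrawal of VitC from Gulo knockout mice was accompanied by lower femoral RNA of the phosphate-releasing enzyme Phospho1, of Smpd3 and of Phex. RNA of the phosphate carrier Slc20a1 was higher. These 4 of the 9 members tested differed between VitC+/- and VitC+ at an adjusted p under 0.05 (limma on log2 of scaled RPKM + 0.5, Benjamini-Hochberg over 12586 genes), 3 lower and 1 higher. Over all genes tested, 13.4% passed (7.52% lower and 5.93% higher). The groups did not overlap for the same 4 members, beside 40.5% of all genes. The median log2 difference was -0.15 over the 9 members and 0.02 over all genes. Fgf23, at or under 0.545 scaled RPKM in all 9 libraries, was below the filter on low values (RPKM of at least 1 in 3 libraries) and was not tested. The study treats the libraries of a group as independent animals. In bulk tissue fewer cells of a type and less RNA per cell cannot be told apart.

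Smpd3 had the widest change. It was at 22.0, 20.6 and 38.0 scaled RPKM in the VitC+ femurs and at 2.14, 0.621 and 6.90 in the VitC+/- femurs. The lowest VitC+ femur was far above the highest VitC+/- femur, and replicate 2 of VitC+/- was the lowest of all. The log2 difference was -3.23 (SE 0.67, adjusted p = 0.0166, limma), from 26.8 ± 9.67 to 3.22 ± 3.28 (SD, n = 3). It was -2.57 without VitC+/- replicate 2 and -3.94 without VitC+/- replicate 3.

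Phospho1 was at 9.73, 10.2 and 14.8 scaled RPKM with VitC and at 2.71, 2.17 and 3.79 after withdrawal. The VitC+/- values were close together and all under the VitC+ values. The log2 difference was -1.84 (SE 0.35, adjusted p = 0.0123, limma). Alpl, which also releases phosphate and was more abundant than Phospho1 and Smpd3, did not pass the test. Its level was 145, 96.9 and 154 scaled RPKM in VitC+ and 84.2, 27.7 and 162 in VitC+/-. VitC+/- replicate 3 was the highest of all 9 libraries and replicate 2 among the lowest, so the groups overlapped. The log2 difference of Alpl was -0.84, with a 95% interval from -2.30 to 0.62 (adjusted p = 0.416, limma). It was -0.15 without VitC+/- replicate 2 and -1.41 without VitC+/- replicate 3, and passed in neither case.

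Phex, a membrane peptidase of osteoblasts and osteocytes whose loss raises FGF23, was at 12.9, 17.9 and 27.4 scaled RPKM in VitC+ and at 3.05, 2.44 and 2.70 in VitC+/-. The 3 VitC+/- femurs agreed closely and lay well under every VitC+ femur. The log2 difference was -2.56 (SE 0.29, adjusted p = 0.00185, limma), the smallest adjusted p of the 9 members. Fgf23 itself was listed at 0.192, 0.545 and 0.0671 in VitC+ and at 0.154, 0.235 and 0.156 in VitC+/-, and the groups overlapped.

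Slc20a1, which encodes PiT-1, was at 19.1, 13.1 and 18.8 scaled RPKM in VitC+ and at 41.8, 27.9 and 39.7 in VitC+/-. Every VitC+/- femur was above every VitC+ femur and every WT femur. The log2 difference was 1.08 (SE 0.20, adjusted p = 0.0122, limma), from 17.0 ± 3.37 to 36.5 ± 7.48 (SD, n = 3). Its homologue Slc20a2 was at 6.99 to 12.5 in VitC+ and at 6.60 to 10.9 in VitC+/-, with a difference of -0.15 whose 95% interval ran from -0.75 to 0.46 (adjusted p = 0.746, limma).

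The genes that supply pyrophosphate and the inhibitor Mgp did not pass. Enpp1 was at 8.82, 5.96 and 11.2 scaled RPKM in VitC+ and at 7.72, 4.08 and 17.4 in VitC+/- (difference -0.02, interval from -1.04 to 1.00, adjusted p = 0.981, limma). Ank was at 19.7, 19.0 and 22.6 in VitC+ and at 25.5, 14.6 and 44.6 in VitC+/- (difference 0.32, interval from -0.45 to 1.09, adjusted p = 0.561, limma). In both genes VitC+/- replicate 3 was the highest library and replicate 2 the lowest of its group, the order also seen for Alpl. Mgp, a secreted protein whose carboxylated residues bind calcium, was at 258, 115 and 317 in VitC+ and at 351, 352 and 312 in VitC+/- (difference 0.68, interval from -0.51 to 1.86, adjusted p = 0.417, limma).

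**Figure D1:**
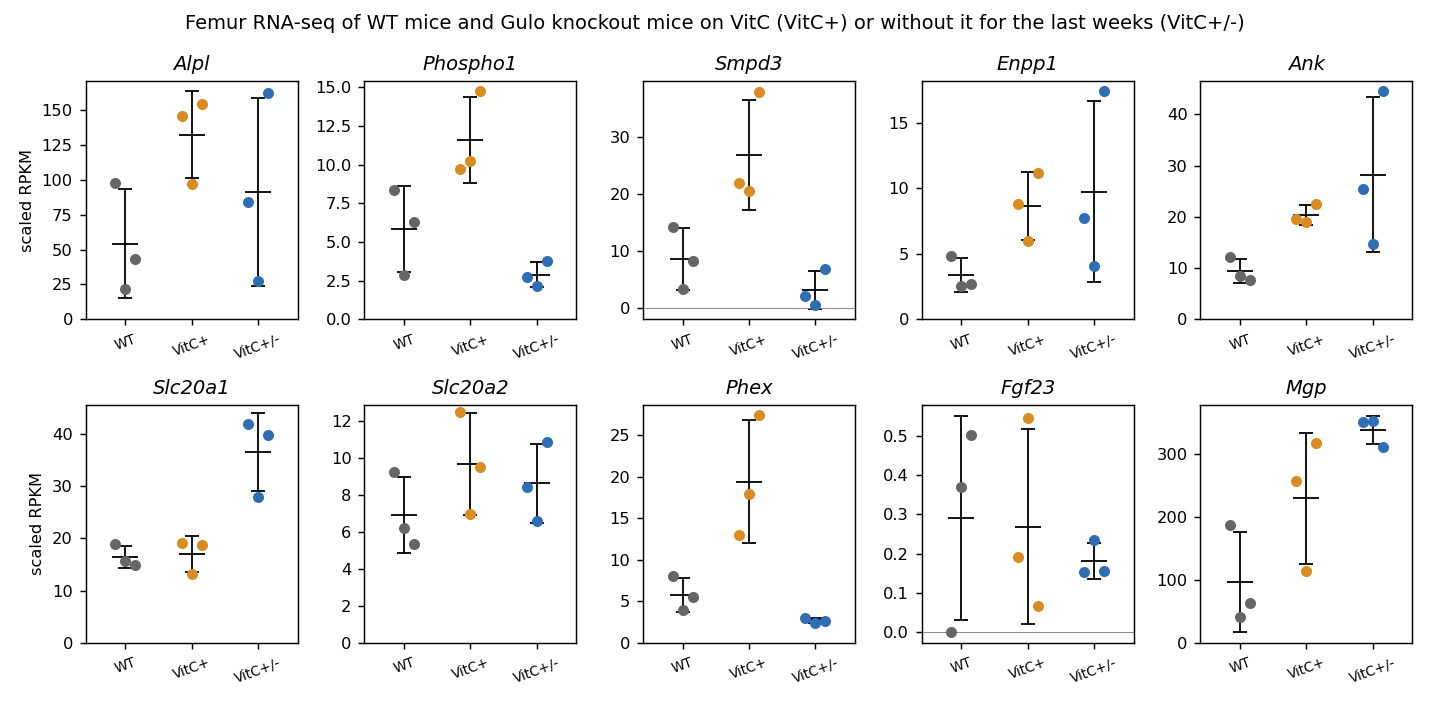
Scaled RPKM (y axes, linear, each from 0) of the 10 genes in the 3 femur groups of the VitC experiment, with 1 point for each library and bars for the mean ± SD of 3 libraries. Phospho1, Smpd3 and Phex are lower and Slc20a1 higher in every VitC+/- femur than in every VitC+ femur, while Alpl, Enpp1 and Ank spread widely within VitC+/-.

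The calls depended on few libraries. Phex kept an adjusted p between 0.0049 and 0.0116 with any 1 of the 6 libraries of these groups left out. Without VitC+/- replicate 1, Phospho1 was at 0.0501, Slc20a1 at 0.056 and Smpd3 at 0.0623, so 1 member was past the threshold, in a setting where 3.88% of all genes were, beside 13.4% with every library. Without VitC+ replicate 3 (4.59% of all genes past) Phospho1 was at 0.0512 and Smpd3 at 0.0634, and without VitC+ replicate 2 (3.96%) Smpd3 was at 0.0516. With WT replicate 3 and VitC+ replicate 1, whose Gulo level went against the label, left out (2.04% of all genes past), Phex was at 0.015 and the other 3 at 0.0607 to 0.0838, with log2 differences of -2.81 for Phex, -1.95 for Phospho1, -3.35 for Smpd3 and 1.17 for Slc20a1. Without the 4 libraries with the most muscle RNA no member passed (adjusted p of 0.0909 to 0.196 for the 4) and 18 of 12035 genes did (0.15%), and the differences of the 4 were -2.66, -1.89, -3.35 and 0.80 in the same order.

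Markers of several cell types moved with these genes. Markers called lower or higher here are those past the threshold, which 7.52% (lower) and 5.93% (higher) of all genes passed. The summed scaled RPKM of 8 osteoblast markers ran from 5212 to 10165 in VitC+ and from 636 to 4294 in VitC+/-. Of the 8, 2 were called lower and 7 had an estimate below 0. The 5 osteocyte markers summed to 143 to 178 and 61.4 to 78.8, with 3 of 5 lower and 5 below 0. The 8 chondrocyte markers summed to 277 to 710 and 40.9 to 53.9, with 2 of 6 tested lower and 5 below 0. The 8 of the B lineage summed to 63.6 to 126 and 13.3 to 26.3, with 7 of 8 lower and 7 below 0. The 8 neutrophil markers summed to 28780 to 45499 and 6791 to 22988, with 2 of 8 lower and 8 below 0. The 6 of fibroblasts summed to 223 to 346 and 60.4 to 75.3, with 2 of 5 tested lower and 5 below 0. The 5 erythroid markers found summed to 143 to 223 and 253 to 351, with 1 of 5 higher and 5 above 0. The 7 osteoclast markers summed to 1870 to 2567 and 2923 to 6479, with 3 of 7 higher and 7 above 0. VitC+/- replicate 2, the library with the lowest Smpd3, Alpl and Enpp1 of its group, summed to 3116 for 8 adipocyte markers, beside 405 or less in the 8 other libraries. The part of these cell types in the differences of the members was not tested.

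Of 49 other genes of phosphate and mineral metabolism in 5 lists, 38 were tested between VitC+ and VitC+/-. Of these 38, 5 passed the threshold lower and 2 higher, next to the 7.52% and 5.93% of all genes. None of the 12 tested genes of matrix vesicles and pyrophosphate turnover passed, nor any of the 6 for zinc supply and anchoring of alkaline phosphatase or of the 2 other phosphate carriers. Among 10 tested genes of FGF23 production and response, the proprotein convertase Pcsk6 fell from 20.8 ± 6.58 to 3.39 ± 2.09 scaled RPKM and Dmp1, an acidic matrix protein of osteocytes, from 79.4 ± 14.8 to 32.5 ± 5.33, while Furin, a convertase that cleaves FGF23, rose from 14.7 ± 1.88 to 31.7 ± 3.27 (SD, n = 3 each). Among 8 tested genes of vitamin K-dependent carboxylation and mineral binding, the epoxide reductase Vkorc1 fell by 1.24 on the log2 scale (adjusted p = 0.0486, limma) and osteopontin (Spp1) rose by 1.28 (adjusted p = 0.0192, limma). Osteocalcin transcripts had the widest changes, -7.53 for Bglap and -6.60 for Bglap2 (adjusted p = 0.00068 and 0.000377, limma). Bglap and Bglap2 are near-identical copies, and how their reads were divided is uncertain.

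Against WT, 4 of 9 members passed as well, beside 31.3% of all genes (15.9% lower and 15.3% higher). Slc20a1 rose by 1.11 on the log2 scale (SE 0.20, adjusted p = 0.00438, limma), from 18.9, 15.7 and 15.0 scaled RPKM in WT. Ank, at 12.2, 8.54 and 7.66 in WT, rose by 1.41 (SE 0.34, adjusted p = 0.0138, limma). Mgp, at 188, 40.8 and 63.1 in WT, rose by 2.10 (SE 0.53, adjusted p = 0.016, limma). Phex, at 8.04, 3.97 and 5.49 in WT, fell by 0.92 (SE 0.29, adjusted p = 0.0399, limma). Groups of these 4 did not overlap, beside 42.7% of all genes, and the 3 that rose had their lowest VitC+/- library above the highest of WT. The other 5 were not past the threshold, with differences of 1.23 for Enpp1, -0.82 for Phospho1, -1.50 for Smpd3, 0.68 for Alpl and 0.31 for Slc20a2. This comparison shares its VitC+/- libraries with the one against VitC+. It combines the genotype and the supply of VitC.

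Leaving out libraries moved the calls against WT too. Without WT replicate 3 (18.1% of all genes past) Slc20a1 alone of the members passed (adjusted p = 0.0229, limma), with Ank at 0.0557 and Mgp at 0.0605. Without VitC+/- replicate 1 (19.3%) Slc20a1 and Ank passed and Mgp was at 0.0507. The call of Phex was lost in 5 of the 6 cases, at 0.0779 to 0.101, and kept without WT replicate 2 (0.0227). Phex was at 0.0903 with RPKM as deposited and at 0.0684 with no filter on low values. With both libraries of doubtful Gulo signal left out (13.3%) Slc20a1 alone passed at 0.0364, and without the 4 libraries richest in muscle RNA, which leaves WT with 1 library, no member and 0 of 12035 genes passed. Other members passed with a library left out. Enpp1 did without WT replicate 1 (adjusted p = 0.0471, limma, where 32.5% of all genes passed) or VitC+/- replicate 2 (0.0141, 28.9%). Phospho1 did without WT replicate 2 (0.0113, 30.3%) and Smpd3 without VitC+/- replicate 3 (0.0269, 23.9%). The log2 difference of Mgp was 2.72 without WT replicate 1.

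WT femurs and VitC+ femurs, both of animals with VitC, were compared to see what the genotype and its supply alone go with. No member and no gene passed (limma, 0% of 12586 genes), while 7 of the 9 members had an unadjusted p under 0.05, as had 2769 of all genes. All 9 estimates were below 0, with a median of -1.25 over the members and 0.04 over all genes. Phospho1, Smpd3, Enpp1, Ank and Phex were lower in every WT femur than in every VitC+ femur, 5 of 9, where 14.5% of all genes were. Phex was nearest to the threshold (log2 difference -1.64, SE 0.29, adjusted p = 0.076, limma), Smpd3 was at -1.73 and Alpl at -1.51. Slc20a1, at -0.03 with a 95% interval from -0.49 to 0.43, and Slc20a2, at -0.45, were the members with the least distance. Without WT replicate 1, the shallowest library, Phex (adjusted p = 0.0377) and Mgp (adjusted p = 0.0381, limma) passed, as did 4.95% of 12521 genes. Osteoblast and osteocyte markers moved along, with sums of 988 to 3776 and of 36.4 to 78.3 in WT, both under the VitC+ ranges, and so did osteoclast markers, at 782 to 855. Chondrocyte markers (62.9 to 171) and fibroblast markers (86.9 to 220.0) were also under the VitC+ ranges, and neutrophil markers (51093 to 72216) above. Their part was not tested.

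**Figure D2:**
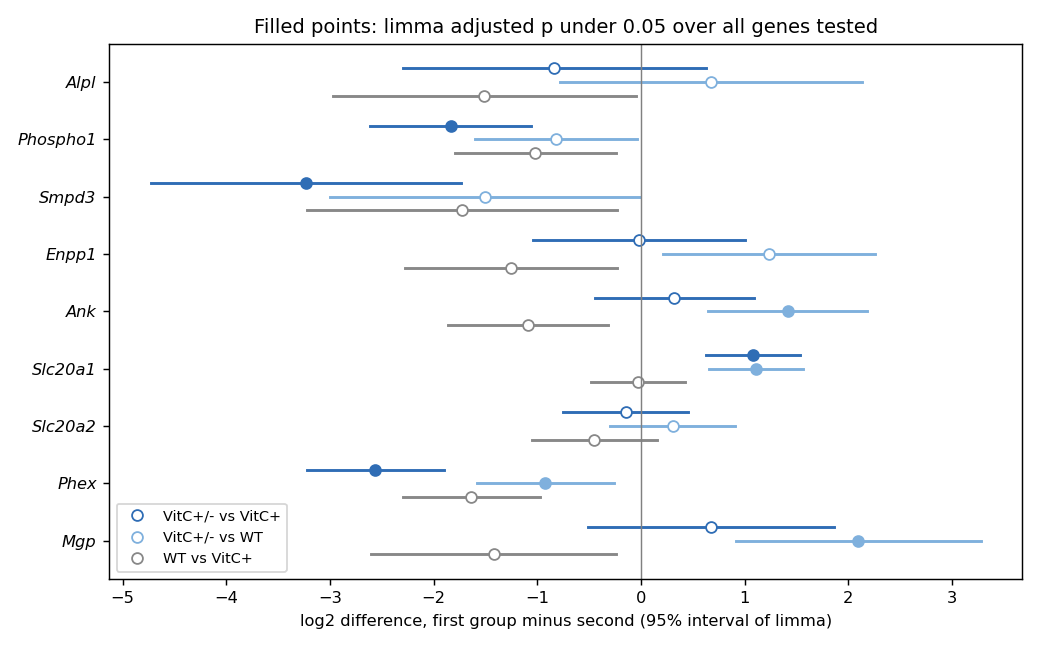
Log2 differences (x axis, first group minus second, with 95% intervals of limma) of the 9 tested genes in the 3 comparisons of the VitC experiment; filled points have an adjusted p under 0.05 over all genes. The comparisons share libraries; Phex, Smpd3 and Phospho1 lie at -2.56, -3.23 and -1.84 for VitC+/- against VitC+, and no point of WT against VitC+ is filled.

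Since RPKM is per length, levels can be ordered within a group. In VitC+ femurs the mean scaled RPKM ran from Mgp (230 ± 104) and Alpl (132 ± 31.0) through Smpd3 (26.8 ± 9.67), Ank (20.4 ± 1.91), Phex (19.4 ± 7.36) and Slc20a1 (17.0 ± 3.37) to Phospho1 (11.6 ± 2.77), Slc20a2 (9.66 ± 2.75), Enpp1 (8.65 ± 2.60) and Fgf23 (0.268 ± 0.248). Of these neighbours, Alpl stood above Smpd3 and Enpp1 above Fgf23 by more than their SDs, and the others in each run of names overlapped. In VitC+/- femurs Slc20a1 (36.5 ± 7.48) and Ank (28.2 ± 15.2) followed Mgp and Alpl, and Smpd3 (3.22 ± 3.28), Phospho1 (2.89 ± 0.824) and Phex (2.73 ± 0.304) lay next above Fgf23 (0.182 ± 0.0463).

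Among themselves the members fell into unlike patterns over the 9 libraries. The most alike pair was Enpp1 and Ank, with a root mean square difference of 0.24 between their centred log2 values, then Phospho1 and Phex at 0.40, and the least alike were Smpd3 and Mgp at 1.93. Over the 12 libraries of the Tet experiment the most alike were Alpl and Smpd3 at 0.36, then Enpp1 and Ank at 0.39. Of all genes, the one with the pattern nearest to Smpd3 was Col11a1 (0.23 over 9 libraries, 0.33 over 12), to Alpl Kdelr3 (0.20 and 0.33), to Phospho1 Tmtc2 (0.16 and 0.50), to Phex Sema3d (0.23 and 0.75), to Enpp1 Cdr2l (0.12 and 0.51), to Ank Antxr1 (0.077 and 0.40), to Slc20a1 Cdc14b (0.15 and 0.64), to Slc20a2 Kif3a (0.082 and 0.55) and to Mgp Wnt4 (0.35 and 0.68). These genes were picked over the 9 libraries only. Over the 12 libraries, the median gene was at 1.14 from Smpd3 and 0.96 from Alpl, but Slc20a1 and its nearest gene were farther apart (0.64) than Slc20a1 and the median gene (0.50).

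Deletion of Tet1 and Tet2 in the limb mesenchyme left no member past the threshold. Values are the normalized counts of the deposited table, which compare a gene between libraries but not genes with each other. In Tet1/2 cKO against Ctrl, 0 of 10 members passed (limma on log2 of normalized count + 1, 16780 genes tested, 0% called). On the recovered reads 0 passed under edgeR and 0 under DESeq2 (0% and 0.0595% of all genes). An unadjusted p under 0.05 (limma) was found for 3 of the 10 members, beside 847 of the 16780 genes. In 8 of 10 members the estimate was below 0, with a median of -0.61, beside -0.01 for all genes. Alpl, Phospho1, Smpd3, Enpp1, Slc20a2 and Mgp, 6 of 10, were lower in every Tet1/2 cKO femur than in every Ctrl femur, as were 10.0% of all genes.

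Alpl was at 4966, 5863 and 6964 normalized counts in Ctrl and at 1758, 3599 and 2402 in Tet1/2 cKO. Each double knockout femur was under each Ctrl femur, with a log2 difference of -1.25 (SE 0.56, adjusted p = 0.723, limma). Smpd3 was at 4213, 6675 and 5933 in Ctrl and at 1293, 3015 and 2249 in Tet1/2 cKO, a difference of -1.42 (SE 0.66, adjusted p = 0.723, limma). Replicate 1 of Tet1/2 cKO was the lowest of its group for Alpl, Smpd3, Phospho1, Ank, Phex, Slc20a1, Slc20a2 and Mgp.

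Mgp was at 2097, 3537 and 3534 normalized counts in Ctrl and at 649, 1064 and 1902 in Tet1/2 cKO, with a difference of -1.44 and a 95% interval from -2.57 to -0.31 before adjustment (adjusted p = 0.723, limma). Phospho1 was at 684, 502 and 731 in Ctrl and at 405, 431 and 427 in Tet1/2 cKO (difference -0.58). Enpp1 was at 1079, 1125 and 995 in Ctrl and at 760.0, 733 and 683 in Tet1/2 cKO (difference -0.56). Both sets of Enpp1 and the double knockout values of Phospho1 were tight.

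Neither phosphate carrier passed in the double knockout. Slc20a2 was at 2016, 2324 and 3067 normalized counts in Ctrl and at 1306, 1763 and 1478 in Tet1/2 cKO (difference -0.69). Slc20a1 was at 7042, 5722 and 5881 in Ctrl and at 5494, 8616 and 7878 in Tet1/2 cKO, where the groups overlapped (difference 0.22, interval from -0.29 to 0.72). The difference between the 2 carriers was not tested. Ank, Phex and Fgf23 overlapped between the groups, at differences of -0.44, -0.64 and 0.10, and Fgf23 was at 13.5 to 39.1 in Ctrl.

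With 1 Tet gene deleted, no member passed in either comparison, where 0.0119% of all genes did (limma and edgeR), 0.122% for Tet1 cKO and 0.0584% for Tet2 cKO under DESeq2, and no group of a member stood clear of Ctrl, beside 7.82% and 5.97% of all genes. 1 of the 10 members, Slc20a2, had an unadjusted p under 0.05 in Tet1 cKO (0.012, limma), at 3901, 3061 and 6587 normalized counts (difference 0.82). In Tet2 cKO 0 of 10 had. Of all 16780 genes, 382 had such a p in Tet1 cKO and 368 in Tet2 cKO. Phex in Tet2 cKO ran from 498 in replicate 2 to 9161 in replicate 1, and Fgf23 from 3.66 in replicate 3 to 80.4 in replicate 2. In replicate 2 Alpl (1998), Smpd3 (1089), Phospho1 (220) and Enpp1 (524) were also lowest of the group, and its 8 osteoblast markers summed to 271915 normalized counts, beside 1302506 and 2161505 in the other two. All 3 comparisons share the Ctrl libraries.

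Osteoblast markers in the Tet experiment summed to 976241 to 1263352 normalized counts in Ctrl and to 304484 to 670811 in Tet1/2 cKO, with all 8 estimates below 0. Skeletal muscle markers summed to 112370 to 496670 in Ctrl, and to 6145, 3036 and 445534 in Tet1/2 cKO. Chondrocyte markers summed to 26506 to 61081 in Ctrl and 12773 to 23545 in Tet1/2 cKO, with 2 of 8 at 0 in a library. Neutrophil markers summed to 797221 to 1205036 in Ctrl and 1122581 to 2577206 in Tet1/2 cKO. Osteocyte markers summed to 11185 to 14076 in Ctrl and 6196 to 11336 in Tet1/2 cKO, with 3 of 5 below 0 and 2 above. Adipocyte markers summed to 14933 to 18234 in Ctrl and 5673 to 12983 in Tet1/2 cKO, with 7 of 8 below 0. None of these markers passed the test, and their part in the members' values was not tested. Of 42 other pathway genes tested, 0 passed in Tet1/2 cKO.

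**Figure D3:**
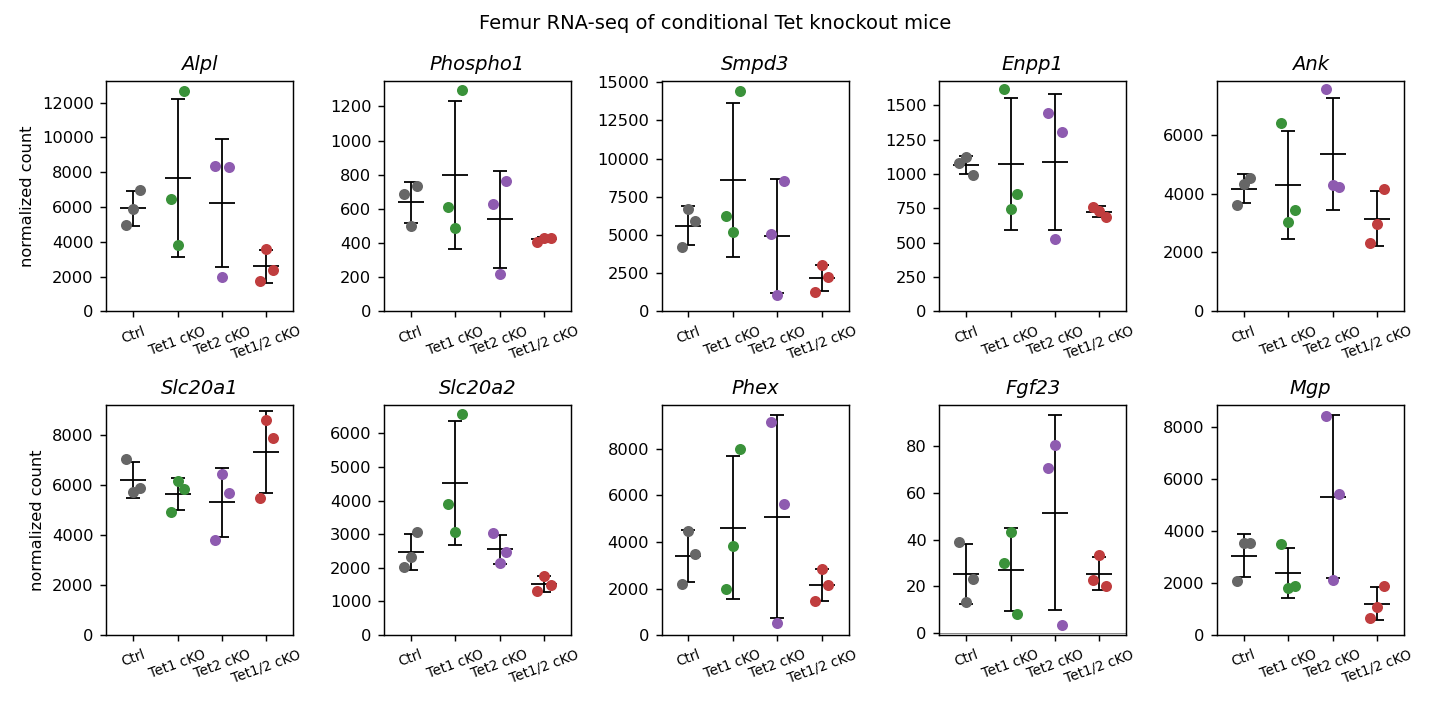
Normalized counts (y axes, linear, each from 0) of the 10 genes in the 4 femur groups of the Tet experiment, with 1 point for each library and bars for the mean ± SD of 3 libraries. The Tet1/2 cKO points of Alpl, Phospho1, Smpd3, Enpp1, Slc20a2 and Mgp lie under all Ctrl points, and Tet1 cKO and Tet2 cKO points spread over the Ctrl range.

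The peaks of 5hmC were compared to see whether their cover at these loci differed when VitC was missing or Tet1 and Tet2 were deleted. Sequencing depth behind each list and the cell makeup of the femurs were not taken into account. There is 1 list a group, called by MACS2 (on pooled samples for 5hmC, not stated for the histone marks), so the lists carry no replicate error and no test was made. For each gene the length covered by peaks was summed over the gene and 30 kb to each side, and a locus was called where that length, with 500 bp added to both, differed by at least 1.5-fold. The loci run from 63.4 kb at Mgp to 313 kb at Phex and hold parts of neighbouring genes, such as Prmt7 at Smpd3, Rap1gap at Alpl and Otulin at Ank. The femur lists of the VitC experiment hold no peak on the X chromosome, so Phex was not analysed there.

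In VitC+/- femurs the covered length was smaller than in VitC+ femurs at all 9 loci analysed, beside 12261 of 20403 genes. Of the 9 loci, 3 were called lower and 0 higher, beside 10.6% and 14.2% of all genes. The median log2 ratio was -0.37 for the members and -0.12 for all genes. Smpd3 had the largest loss as a ratio, 2.15-fold, from 49 peaks covering 24159 bp to 29 peaks covering 10970 bp. Alpl went from 18 peaks and 7115 bp to 12 peaks and 4283 bp, and Ank, which lost the most in bp, from 89 peaks and 49687 bp to 78 peaks and 32357 bp. Slc20a1, the member whose RNA rose, was at 6290 bp in VitC+ and 4683 bp in VitC+/-, within 1.5-fold, as was Phospho1 at 5577 and 4187 bp. By the number of peaks, or at 2-fold, 1 of the 9 loci was lower, beside 9.87% and 1.51% of all genes.

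Many peaks near the members were in 1 of the 2 lists only. Near the members, 91 of 332 peaks with VitC and 24 of 277 peaks after its withdrawal had no partner in the other list. Over the genome these shares were 22.2% and 26.3%. At Smpd3, 22 of 49 VitC+ peaks had no partner, the stretch with 7 CG printed above among them, at 43.3 kb from the start site and a fold enrichment of 7.02. The shared Smpd3 peak without a CG in its centre had a fold enrichment of 15.1. Introns held 163 of the 332 peaks in VitC+ and 137 of the 277 in VitC+/-. Smpd3 was thus the member with the widest fall of RNA and the largest loss of 5hmC cover as a ratio, whereas Phospho1 fell in RNA with its cover within 1.5-fold and Alpl and Ank were called lower in 5hmC without a call in RNA.

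**Figure D4:**
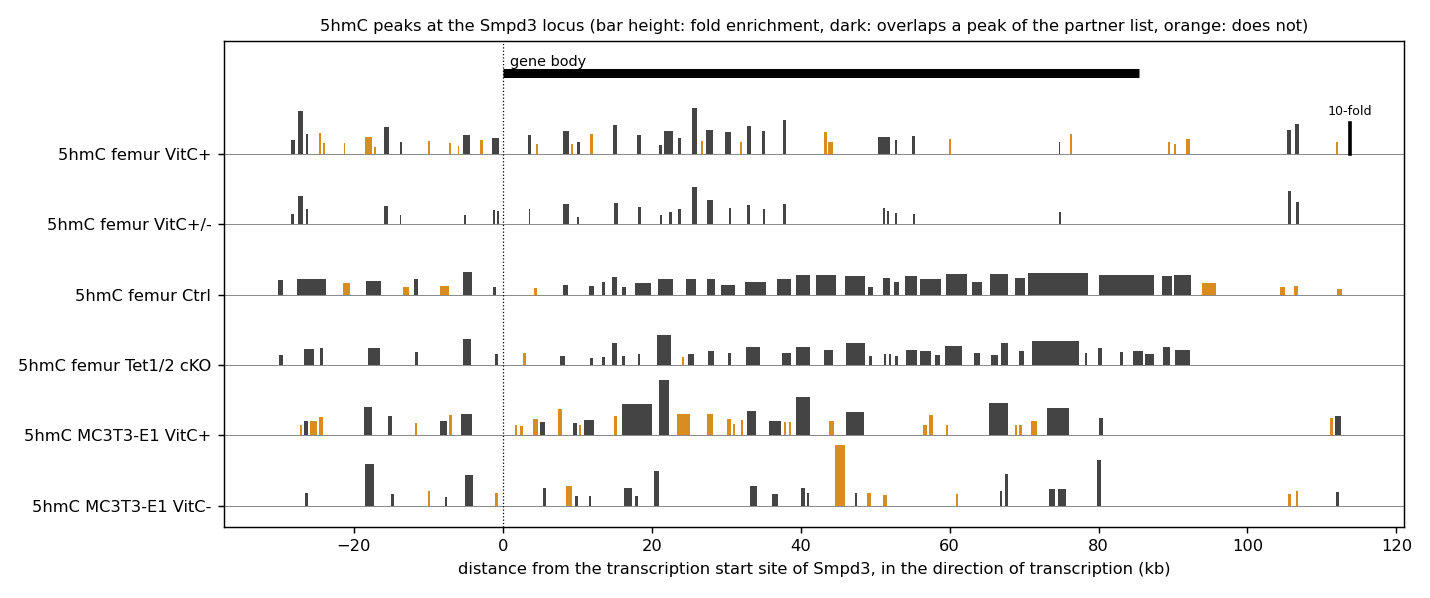
Peaks of 5hmC at Smpd3 in the 4 femur lists and the 2 of MC3T3-E1 cells, by distance from the start site in kb (x axis, in the direction of transcription), with bar width for peak length and height for fold enrichment (scale bar at the upper right). Dark bars overlap a peak of the partner list of the same experiment and orange bars do not; 22 of the 49 peaks of the VitC+ femurs are orange.

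In Tet1/2 cKO femurs the covered length was smaller than in Ctrl at all 10 loci, as it was at 18257 of 18660 genes. Of the 10 loci, 8 were called lower and 0 higher, where 90.3% and 0.836% of all genes were. The median log2 ratio was -1.01 for the members and -1.22 for all genes, and the share called was near that of all genes. Slc20a1 lost the largest share, from 15340 to 3794 bp, and Phex went from 11076 to 3376 bp, Fgf23 from 4831 to 1467 bp and Mgp from 25771 to 8655 bp. The 2 loci not called were Ank, at 142714 bp in Ctrl and 115189 bp in Tet1/2 cKO, and Alpl, at 59632 and 42010 bp. Of the 233 Tet1/2 cKO peaks near members, 230 overlapped a Ctrl peak, against 96.8% of all. With windows of 10 kb, with peak numbers or at 2-fold, 5 of 10 loci were called lower, beside 86.8%, 73.4% and 66.4% of all genes.

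In MC3T3-E1 cells after 28 days, 7 of 10 loci were called higher in 5hmC cover with VitC and 1 lower, beside 47.5% and 32.6% of 21661 genes. The median log2 ratio was 0.89 for the members and 0.48 for all genes. The 2 lists shared few peaks: over the genome, 36.0% of those with VitC and 33.6% of those without overlapped a peak of the other. Near the members, 144 of 336 and 155 of 221 did. Ank had the largest gain, from 24446 bp in 41 peaks to 88262 bp in 72 peaks, a 3.56-fold change. Slc20a2 went from 14130 to 47504 bp, Slc20a1 from 6020 to 17896 bp, Alpl from 20402 to 44649 bp and Smpd3 from 18018 to 39527 bp. Phospho1, from 10203 to 15741 bp, and Mgp, from 16974 to 27131 bp, were just past 1.5-fold. Fgf23 was the locus called lower, from 4273 to 1895 bp, and it was not called with peaks of -log10 q of at least 5 or at 2-fold. At Phex, 19460 bp without VitC and 17892 bp with VitC were within 1.5-fold, and the VitC- peak over its start site was 1061 bp long.

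H3K27me3, a repressive mark removed by VitC-dependent demethylases among others, was called lower with VitC (at least 1.5-fold less cover) at 6 of the 9 loci with a peak and higher at 0, beside 56.7% and 2.83% of 14925 genes. Slc20a2, Fgf23 and Mgp were within 1.5-fold, Mgp with more cover with VitC, from 6066 to 6731 bp. Phospho1 went from 9 peaks and 9846 bp to 2 peaks and 941 bp, and Alpl from 3365 to 169 bp. Ank went from 8155 to 2447 bp, Enpp1 from 23262 to 13171 bp and Slc20a1 from 7760 to 4476 bp, while Phex had 1 peak of 274 bp that was missing with VitC. Fgf23 was the most covered locus, with 47861 bp of a 69.4 kb window without VitC and 32031 bp with it. Its start site and that of Enpp1 lay under peaks of 19036 and 3192 bp in the VitC- list alone. Smpd3 had no H3K27me3 peak in either list. The labels give 28 days of treatment for the histone marks and the study's methods 7 days, and the peak names start with the latter.

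H3K9me3, a mark of closed chromatin, was sparse at these loci, with 21 peaks without VitC and 11 with VitC. It was called lower with VitC at 9 of 10 loci and higher at 1, beside 54.3% and 10.3% of 13985 genes, and the median log2 ratio was -1.89, beside -0.67 for all genes. Phospho1 went from 8280 to 475 bp and Slc20a2 from 10217 to 4710 bp, and Alpl, Smpd3, Phex, Fgf23 and Mgp went to 0 bp. Enpp1 was the exception, from 2194 to 3704 bp. Alpl, Smpd3, Enpp1, Ank and Phex, 5 of the 10, had 1 peak in the VitC- list, so their calls rest on few peaks. With peaks of -log10 q of at least 5, no member had a peak of H3K27me3 or H3K9me3.

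**Figure D5:**
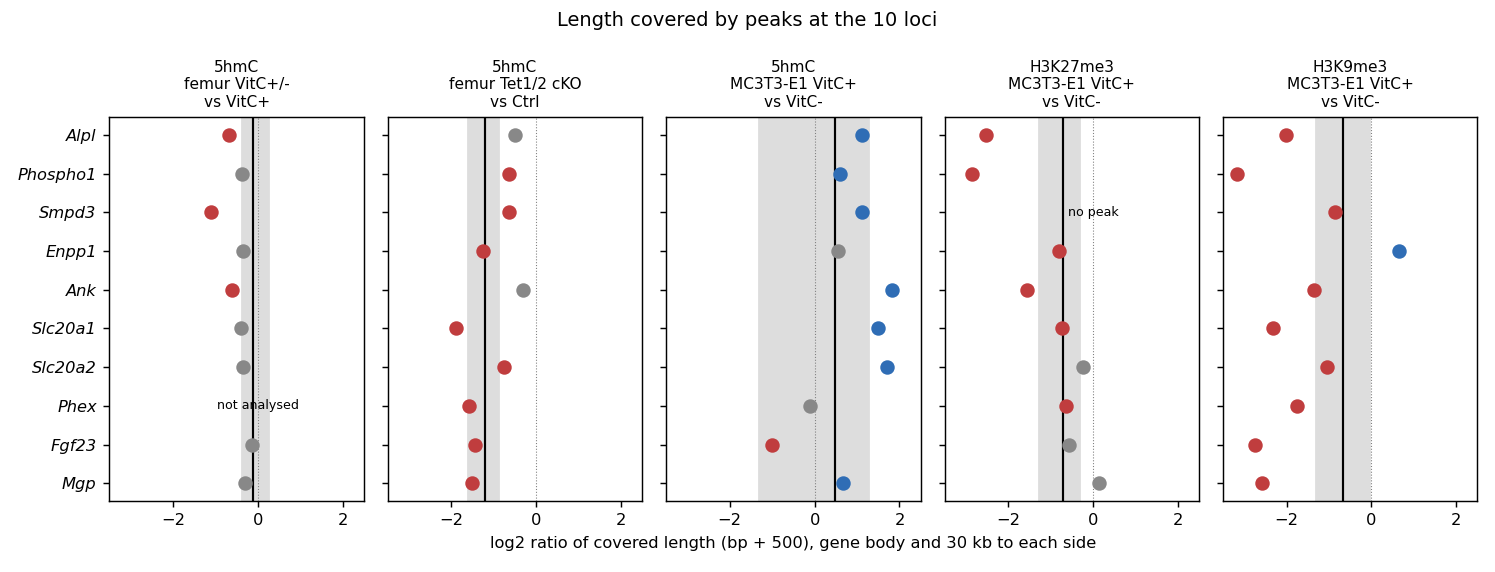
Log2 ratio of the length covered by peaks, first list over second with 500 bp added to both (x axis), for the 10 genes in the 5 comparisons of peak lists, with the median of all genes as a line. Femur points lie below 0 in both 5hmC comparisons, and the members' medians are 0.89 for 5hmC, -0.73 for H3K27me3 and -1.89 for H3K9me3 in MC3T3-E1 cells with VitC.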

How the data were processed

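RPKM per gene were deposited for each of the 9 VitC femur libraries, and the authors deposited normalized counts (signal, DESeq2 size factors) for the 12 Tet femur libraries. Dividing the normalized counts by their smallest step gave whole reads for 100% of values within 0.01 (28.6 to 49.8 M reads a library), and these recovered reads of all 12 libraries were tested as an alternative. Depth of the RPKM libraries was estimated from the same kind of step. Per the labels and methods, reads were aligned to mm10 with STAR and counted with featureCounts, and DNA reads were aligned with BWA. The authors called peaks with MACS2, on pooled samples for 5hmC (pooling is not stated for the histone marks), at a stated FDR of 0.05. They deposited each peak's fold enrichment (a ratio over the local background) with its -log10 p-value and -log10 q-value. The lowest -log10 q was 1.30 in the 5hmC lists and 1.01 in the histone lists. The histone lists, called with broad peak settings by the methods, thus hold peaks with a q above the stated 0.05. Submitters' processing notes list STAR 2.6.0b-1, featureCounts 1.6.3, DESeq2 2.11.40.2, BWA 0.7.15.1 and MACS2 2.1.1.20160309.6. Whether counting used strand is not given in the sources used here.

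Each VitC library was scaled by its median ratio to the geometric mean library. limma 3.58.1 (R 4.3.3, empirical Bayes with trend) was fitted to log2(scaled RPKM + 0.5) over all 9 libraries, for genes with RPKM of at least 1 in 3 libraries, and to log2(normalized count + 1) over all 12, for genes at 10 or more in 3 libraries. A fold change on such a scale understates the change of low genes. p-values were adjusted by Benjamini-Hochberg over all genes tested, with a threshold of 0.05. edgeR 4.0.16 (quasi-likelihood) and DESeq2 1.42.0 were alternatives. Scripts were tested on simulated data. All 10 members were examined in every comparison where they could be analysed, but not each is named in the text. Of the pathway lists, genes past the threshold are named for VitC+/- against VitC+ only. Against WT, 2 of the 38 tested passed lower and 11 higher, beside 15.9% and 15.3% of all genes, and are not named. The members, lists and tests were chosen with earlier results of these data known. Marker lists were used to describe cell makeup. Sequences are from RefSeq GRCm38.p6, and 7 of 10 members matched a promoter. The sequence of 1 further peak is not reported here.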

Additional observations from a re-analysis of the deposited data

How the results depend on the processing

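Counts of members past the threshold moved as follows. For VitC+/- against VitC+ (4 members) leaving out 1 library gave 1 to 4, where 3.88% to 10.4% of all genes passed. Leaving out both libraries of doubtful Gulo signal gave 1 (2.04%), and leaving out the 4 libraries with the most muscle RNA 0 (0.15%). For VitC+/- against WT (4 members) leaving out 1 library gave 1 to 5 (18.1% to 32.5%), and leaving out both libraries of doubtful Gulo signal 1 (13.3%). Without the 4 libraries with the most muscle RNA, WT keeps 1 library. For WT against VitC+ (0 members) leaving out 1 library gave 0 to 2 (0% to 4.95%). These 2 settings of left-out libraries were chosen after seeing the data. Whether the replicate numbers pair the samples is not settled by these data. In the VitC experiment, deviations of same-numbered libraries correlated at -0.19 to 0.46, with 4 of 9 pairs over 0.1. Those of different-numbered libraries correlated at -0.37 to 0.41, with 4 of 18 over 0.1. In the Tet experiment the ranges were -0.57 to 0.53 (6 of 18 over 0.1) and -0.62 to 0.55 (18 of 36). With the replicate number as a block, 7 members passed for VitC+/- against WT (35.5% of all genes), 1 (Phex, adjusted p = 0.0289, limma) for WT against VitC+ (6.15% of all genes), 4 for VitC+/- against VitC+ (17.2%) and 0 in each Tet comparison. Members with less peak cover are given with the share of all genes. For femur 5hmC without VitC they changed from 3 to 1 (number of peaks, 9.87%, or 2-fold, 1.51%) and were 2 to 4 otherwise (10.1% to 13.0%). For Tet1/2 cKO they changed from 8 to 5 (gene plus 10 kb, 86.8%, number of peaks, 73.4%, or 2-fold, 66.4%). For 5hmC in MC3T3-E1 cells 1 became 2 (peaks within 30 kb of the start site, 33.9%) or 0 (-log10 q of at least 5, 32.6%, or 2-fold, 27.9%). The 7 loci called higher in that comparison became 6 (peaks within 30 kb of the start site) or 5 (number of peaks, or 2-fold), and stayed 7 otherwise. The share of all genes called higher in those settings was not computed. For H3K27me3 the members with less cover changed from 6 to 3 of 9 (number of peaks, 25.8%, or 2-fold, 35.9%). For H3K9me3, 9 of 10 became 7 of 10 (number of peaks, 46.7%) or 8 of 10 (2-fold, 35.8%). The other H3K9me3 windows gave 6 of 7 (start site, 54.0%) and 7 of 8 (gene plus 10 kb, 52.5%). For the histone marks, -log10 q of at least 5 left no value.

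Some estimates changed sign. Without scaling, Enpp1 was at 0.10 for VitC+/- against VitC+ and Slc20a1 at 0.051 for WT against VitC+, a setting that moved the median of all genes by 0.11 and 0.073. Without the doubtful Gulo libraries, Enpp1 was at 0.015, Slc20a2 at 0.048 (VitC+/- against VitC+) and Slc20a1 at 0.13 (WT against VitC+). Without the muscle-rich libraries Phospho1 was at 0.016 for VitC+/- against WT, from -0.82 with every library. Fgf23 in Tet1/2 cKO was at -0.0087 by edgeR. With 1 library left out, the ranges were -0.53 to 0.45 for Enpp1, -0.073 to 0.72 for Ank and -0.35 to 0.048 for Slc20a2 (VitC+/- against VitC+), -0.20 to 0.062 for Slc20a1 (WT against VitC+) and -0.27 to 0.47 for Fgf23 (Tet1/2 cKO). The cause of these changes was not tested. With 3 libraries a group and 1 pooled peak list a group, small differences were not detectable. Totals over the counts of members and the members' log2 differences were 604 kept, 14 stronger, 47 weaker and 20 reversed. The differences in Tet1 cKO and Tet2 cKO and the settings without a value were left out. A difference was kept where its sign and call stayed, whatever its size, and a count where it stayed within 1.5-fold. The total kept therefore does not measure how stable the sizes were.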
